A study of Mus musculus with 2 samples.

Results

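Granzyme B cells without checkpoint transcripts were CD8+ tumor-infiltrating lymphocytes (TIL) that carried *Gzmb* mRNA, held no transcript of *Pdcd1*, *Lag3* or *Havcr2*, and were not in cycle. They numbered 274 of 4745 cells, of which 119 came from a lean mouse library of 2456 cells and 155 from an obese mouse library of 2289 cells. The members were chosen cell by cell on unique molecular identifiers (UMIs, each standing for 1 captured mRNA molecule). A member had at least 2 UMIs of *Gzmb*, 0 UMIs summed over *Pdcd1*, *Lag3* and *Havcr2*, fewer than 5 summed over *Top2a*, *Mki67* and *Birc5*, fewer than 8 summed over the S-phase genes *Mcm3*, *Mcm5*, *Pcna*, *Tyms* and *Rrm2*, and fewer than 3 summed over *Gzmc*, *Gzmd*, *Gzme*, *Gzmf*, *Gzmg* and *Gzmn*. All cells were limited to more than 500 and fewer than 50000 UMIs, with under 7.5% of UMIs from the mitochondrial genome. Because these readouts selected the cells, their levels are given as a description, and a contrast of members with other cells is not a test.

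Granzyme B is a serine protease that killer T cells store in granules and release with perforin, the pore-forming protein that lets it enter a target cell. After antigen recognition CD8+ T cells switch on granzyme genes, and with continued stimulation in tumors they keep the inhibitory receptors PD-1 (*Pdcd1*), LAG-3 (*Lag3*) and TIM-3 (*Havcr2*), in a state known as exhaustion. Cells that carry granzyme mRNA without these receptors can be found among circulating effector and memory T cells.

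Both libraries were made with 10x Genomics 3′ chemistry from CD8+ cells of B16 F0 melanoma tumors, a transplanted mouse tumor line, enriched on CD8 MicroBeads and sorted on CD8. The Lean library came from 16-week-old male C57BL/6J mice on normal chow (NC) and the Obese library from 16-week-old male C57BL/6J mice on a Western diet (WD), each fed for 12 weeks from weaning, with tumors taken on day 14. Each diet had 1 library, and the number of mice in each was not given in the sources used here, so diet, mouse and library cannot be told apart and no test between diets was possible. All intervals below are 95% intervals for counting error alone (exact Poisson for levels, Clopper-Pearson for shares, conditional binomial for ratios). They treat UMIs as independent, although many can come from 1 cell.

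Members were reached by successive limits. Of the cells within the depth limits, 1170 lean and 967 obese cells had at least 2 *Gzmb* UMIs, and 620 and 489 of these remained after the limits on cycling genes and on *Gzmc* to *Gzmn*. These resting *Gzmb* cells split into the members and into 501 lean and 334 obese cells with at least 1 checkpoint UMI, called checkpoint cells below. Members were 4.85% of lean cells (4.03 to 5.77) and 6.77% of obese cells (5.78 to 7.88). Within the resting *Gzmb* cells they were 19.2% in the lean library (16.2 to 22.5) and 31.7% in the obese library (27.6 to 36.0). Just outside the rule lay 116 lean and 121 obese cells that had 1 *Gzmb* UMI and met every other limit, and 55 lean and 74 obese *Gzmb* cells with a single checkpoint UMI. Just inside were 33 lean and 42 obese members with exactly 2 *Gzmb* UMIs.

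Members were shallower than checkpoint cells. They held a median of 5264 UMIs in the lean library (range 569 to 18301) and 6065 in the obese library (562 to 32239), against 8816 and 10011.5 in the checkpoint cells. Summed over members, 701968 lean and 1065614 obese UMIs were available, of 27815785 and 28705830 in all cells within the limits. The share of resting *Gzmb* cells that were members dropped across depth bins, in the lean library from 40.1% below 5000 UMIs to 2.78% in the deepest bin, and in the obese library from 51.0% to 5.0%. The obese share was above the lean share in each of the 4 bins. The part of depth in these shares was not tested. Between 5000 and 15000 UMIs, 60 of 406 lean resting *Gzmb* cells were members (14.8%, 11.5 to 18.6) and 102 of 313 obese ones were (32.6%, 27.4 to 38.1).

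**Figure D1:**
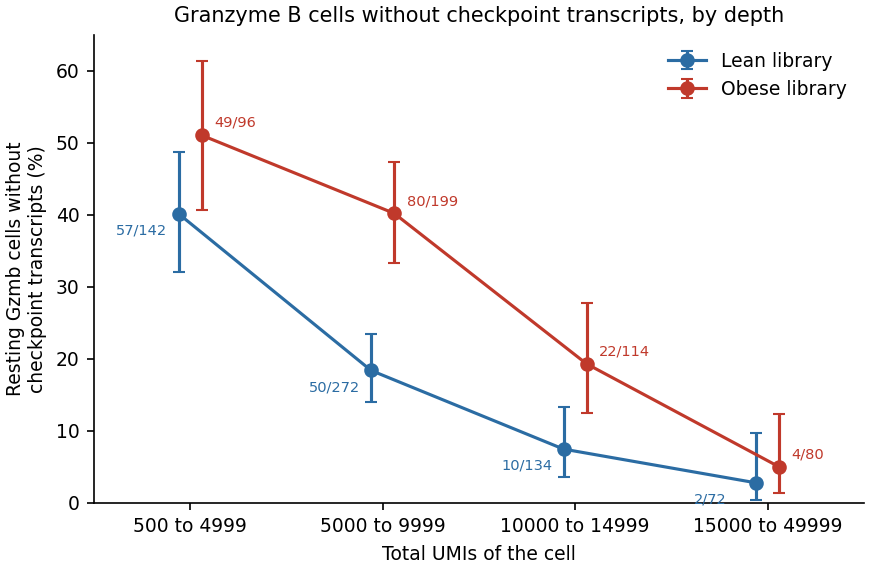
Share of resting *Gzmb* cells that were members (y axis, percent) by total UMIs per cell (x axis, bins), for the lean and obese libraries; bars are 95% Clopper-Pearson intervals. The share falls with depth in both libraries, and between 5000 and 15000 UMIs it was 14.8% in the lean and 32.6% in the obese library.

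The members read as CD8+ T cells. A UMI of *Cd8a* or *Cd8b1*, the CD8 coreceptor chains, was found in 111 of 119 lean members (93.3%) and 147 of 155 obese members (94.8%), and a UMI of a CD3 gene or of *Trac*, the T cell receptor α constant gene, in 119 (100%) and 152 (98.1%). Markers of other cells were rare. Melanoma genes summed to 0 UMIs in lean members and to 4 in obese members, all of *Mlana*. Of 8 myeloid genes, 2 were detected in lean and 4 in obese members, with 5 and 12 UMIs, and *Csf1r*, *Adgre1* and *S100a8* stood at 0 in both. Of the dendritic cell list, 22 and 26 UMIs were found (31.3 and 24.4 counts per 1000000 UMIs, CPM), 17 of them of *Cd74* in each library, while *Siglech*, *Xcr1* and *Flt3* stood at 0. B cell genes gave 3 and 6 UMIs with *Cd79a* and *Ms4a1* at 0, CD4 T cell genes 13 and 8, γδ T cell genes 4 and 6 with *Trdc* at 0, and stromal genes 5 and 15, all of *Pecam1*. The natural killer list summed to 45 and 103 UMIs (64.1 and 96.7 CPM), of which 28 and 93 were *Eomes*, a transcription factor that CD8+ T cells also use, and *Ncr1* and *Klra8* stood at 0. Red cell genes summed to 0 and 1 UMI and mast cell genes to 0 in both libraries.

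Free mRNA in droplets can place *Gzmb* UMIs in cells that do not express the gene, so *Gzmb* was also read in cells with naive-type transcripts. Resting cells with at least 1 UMI each of *Lef1* and *Ccr7*, genes of naive T cells, numbered 292 in the lean library (median 7597 UMIs) and 295 in the obese library (median 8613). At least 2 *Gzmb* UMIs were present in 24 of the lean cells of this kind (8.22%, 5.34 to 12) and in 21 of the obese ones (7.12%, 4.46 to 10.7). Among all resting cells without checkpoint UMIs, members were 119 of 910 in the lean library (13.1%, 11 to 15.4) and 155 of 938 in the obese library (16.5%, 14.2 to 19.1). The intervals overlapped in the lean library and were apart in the obese library. At least 10 *Gzmb* UMIs were found in 10 of the lean cells with *Lef1* and *Ccr7* (3.42%) against 13 of the 910 (1.43%), and in 5 of the obese ones (1.69%) against 37 of the 938 (3.94%). At this higher limit the intervals overlapped in both libraries (1.65 to 6.21 and 0.763 to 2.43 lean, 0.553 to 3.91 and 2.79 to 5.40 obese). The cells with *Lef1* and *Ccr7* were not limited in checkpoint UMIs, unlike the cells they were set against. Of the 24 lean and 21 obese ones with at least 2 *Gzmb* UMIs, 11 and 9 were members, and the rest carried checkpoint UMIs. The shares are thus not of like cells, and no conclusion is drawn from their overlap or separation. The part of free mRNA in the members' values was not tested. Of the members themselves, 11 lean (9.24%) and 9 obese (5.81%) cells also carried both *Lef1* and *Ccr7* UMIs. The libraries shared 4 cell barcodes, and no member was among them.

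*Gzmb* (ENSMUSG00000015437, chr14:56258838-56262260 in GRCm38, minus strand), which defined the members, spanned a wide range within them. The median member had 4 *Gzmb* UMIs in the lean library, with a maximum of 17, and 5 in the obese library, with a maximum of 57. Members with at least 10 *Gzmb* UMIs were 13 of 119 in the lean library (10.9%) and 37 of 155 in the obese library (23.9%), whereas 55 and 65 members had only 2 or 3. Summed over members, *Gzmb* stood at 870 CPM in the lean library (803 to 942) and 1148 CPM in the obese library (1084 to 1214), a log2 ratio of obese over lean of 0.40 (0.26 to 0.54). In the checkpoint cells the order was the opposite, with 1668 CPM in the lean and 921 CPM in the obese library (log2 ratio −0.86). Per cell, the median *Gzmb* UMIs of checkpoint cells were 10 in the lean and 6 in the obese library, above those of members in both. Since the rule set a minimum of 2 *Gzmb* UMIs whatever the depth, a shallow member has a high CPM by construction, and the order of members and checkpoint cells in *Gzmb* is not a finding.

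*Gzma* (ENSMUSG00000023132, chr13:113093825-113100981, minus strand) encodes granzyme A, a tryptase that is stored in the same granules. It was not part of the rule, and its level was highest in the members of the 3 resting groups. Members held *Gzma* at 1731 CPM in the lean library (1635 to 1831) and 752 CPM in the obese library (701 to 806), checkpoint cells at 132 and 228 CPM, and resting cells with neither *Gzmb* nor checkpoint UMIs at 32.3 and 8.42 CPM. Members, with 2.52% of all lean UMIs and 3.71% of all obese UMIs, carried 41.1% and 34.2% of their library's *Gzma* UMIs and 1.67% and 6.92% of its *Gzmb* UMIs. Checkpoint cells, with 17.6% and 12.9% of all UMIs, carried 22.0% and 36.2% of the *Gzma* UMIs. For each *Gzmb* UMI, lean members held 1.99 *Gzma* UMIs and obese members 0.655, against 0.0794 and 0.248 in the checkpoint cells. Since 3′ counting yields 1 UMI per molecule whatever the length of the transcript, these ratios need no length correction.

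The *Gzma* signal came from a minority of members. It was detected in 35 lean members (29.4%) and 50 obese members (32.3%), and 27 lean and 32 obese members with at least 5 *Gzma* UMIs held 99.2% and 95.3% of all *Gzma* UMIs in members. The highest single members held 147 UMIs in the lean and 136 in the obese library. In 20 lean and 27 obese members, *Gzma* UMIs outnumbered *Gzmb* UMIs. Across members, the 2 granzymes increased together only loosely, with Pearson's r of 0.36 over the 119 lean and 0.27 over the 155 obese cells, points that share a library and its depth. The share of members with *Gzma* was alike in the 2 libraries, whereas the summed level was lower in the obese members (log2 ratio −1.20, −1.33 to −1.07, and −1.29 without the highest cell of each library). When each cell was thinned to 2000 UMIs, which left out 6 lean and 10 obese members, *Gzma* was found in 25.7% of lean and 29.0% of obese members, in 8.21% and 12.5% of checkpoint cells, and in 2.53% and 1.97% of cells without *Gzmb*.

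**Figure D2:**
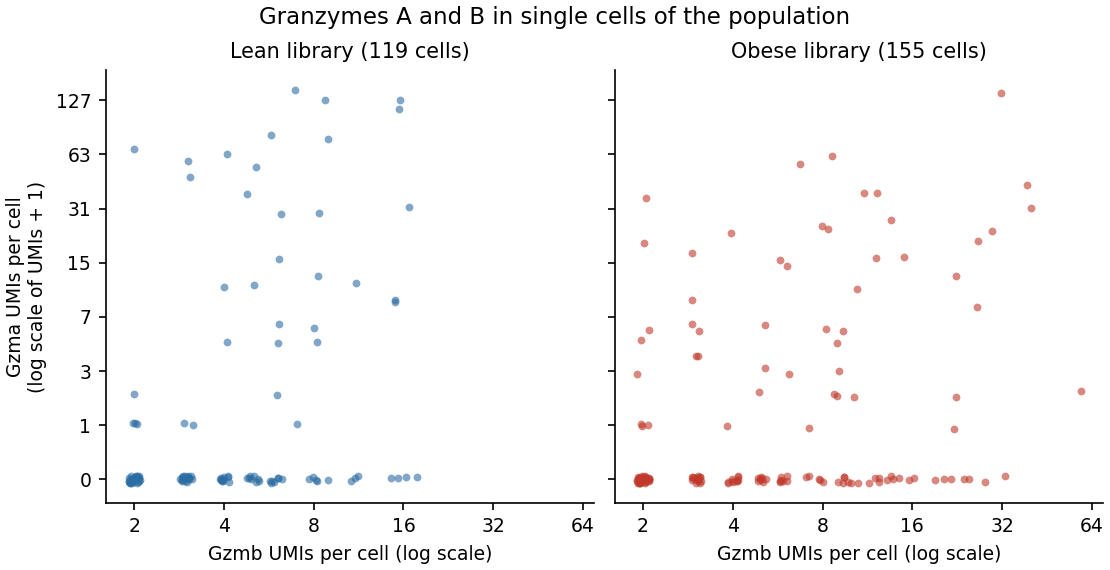
*Gzma* UMIs (y axis) against *Gzmb* UMIs (x axis) in each member, in the lean and obese libraries; the x axis is a log scale, the y axis a log scale of UMIs plus 1, and points are spread slightly so that they do not overlap. Most members sit at 0 *Gzma* UMIs, and 27 lean and 32 obese members with at least 5 carry nearly all of it.

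Members rich in *Gzma* differed from those without it. Lean members with at least 5 *Gzma* UMIs carried *Ccl5*, a chemokine of effector and memory T cells, at 31337 CPM against 10553 CPM in members with none, and the obese members at 22115 against 12565 CPM. *Klf2*, a transcription factor of quiescent and recirculating T cells, was at 2350.3 against 1288 CPM in the lean library and at 1015 against 962 CPM in the obese library. High *Gzma* thus went with high *Ccl5* in both libraries, while *Klf2* differed widely in the lean library and little in the obese one. These groups were formed on *Gzma* itself and share their libraries.

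The other granule genes differed from *Gzma* in level and between the diets. *Gzmk*, which encodes granzyme K of memory-type CD8+ cells, stood at 124 and 225 CPM in lean and obese members (log2 ratio 0.86, 0.50 to 1.23), and was found in 38.7% and 60.0% of them. Its ratio was 0.14 in members with at least 10 *Gzmb* UMIs. Within members it was higher in those with at least 5 *Gzma* UMIs than in those with none, at 254 against 85.4 CPM in the lean and 306 against 199 CPM in the obese library. Granzyme M (*Gzmm*) was at 41.3 and 40.4 CPM, above the 3.06 and 4.58 CPM of the checkpoint cells. *Prf1*, the perforin gene, was low in members, with 64.1 CPM in the lean and 74.1 CPM in the obese library (log2 ratio 0.21, −0.34 to 0.77), against 508 and 224 CPM in the checkpoint cells. At equal depth, 15.9% of lean and 14.5% of obese members had a *Prf1* UMI, against 47.4% and 24.0% of checkpoint cells. Granzyme B mRNA in the members was thus seldom accompanied by perforin mRNA at this depth. *Nkg7*, a granule membrane protein gene, was detected in 95% and 95.5% of members, at 1779 and 2043 CPM, and likewise stood higher in *Gzma*-rich members (2720.2 against 1568 CPM lean, 2420 against 1923 CPM obese).

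Members also held effector cytokine mRNA. *Ifng*, which encodes interferon γ, stood at 440 CPM in lean and 611 CPM in obese members (log2 ratio 0.47, 0.28 to 0.67), between the 131 and 209 CPM of cells without *Gzmb* and the 921 and 760 CPM of checkpoint cells. It was detected in 63% of lean and 78.1% of obese members. *Tnf*, the gene of tumor necrosis factor, was at 35.6 and 66.6 CPM, in 18 and 46 cells. The *Ifng* ratio moved with the processing, from 0.14 when each cell was weighted equally to 1.03 in cells of 5000 to 15000 UMIs.

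Relative to the checkpoint cells, the members held high levels of naive and memory genes and low levels of glycolytic, chemokine, costimulatory and inhibitory receptor genes. Homing and residence genes were mixed, being higher by the fold for 5 of 15 in the lean library, with 3 lower (median 0.35), and for 8 of 16 in the obese library, with 1 lower (median 0.52). At equal depth, the chemokine receptor gene *Cxcr6* was found in 26.5% of lean and 37.9% of obese members, against 61.2% and 52.3% of checkpoint cells. *Cxcr3*, another such gene, had the opposite order (27.4% and 29.7% against 11.5% and 17.6%). Of 6580 genes with a mean of at least 10 CPM in the lean library, 14.9% were higher in members by more than 0.5 on the log2 scale and 21.4% lower. In the obese library 13.3% of 6732 genes were higher and 15.7% lower. The median over all genes was −0.08 and −0.05. Cytotoxic granule genes were lower by that fold for 11 of 17 in the lean library, with 3 higher (median −0.84). In the obese library 5 of 17 were lower and 3 higher (median −0.29). Cholesterol genes were lower for 6 of 13 in the lean library, with 1 higher (median −0.42). In the obese library they were lower for 13 of 18, with 0 higher (median −0.84). The rule made this contrast, so the list counts below describe it and give no test.

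The naive and memory list showed the widest difference. All 16 of its genes were higher in lean members by that fold (median log2 ratio 2.22), and 14 of 16 in obese members (median 1.45), with 1 lower. *Klf2* stood at 1494 CPM in lean and 993 CPM in obese members, against 273 and 386 CPM in checkpoint cells. *S1pr1*, the sphingosine-1-phosphate receptor that lets lymphocytes leave tissue, stood at 99.7 and 81.6 CPM against 16.1 and 25.6 CPM. *Tcf7*, which encodes the memory factor TCF1, was at 78.4 and 70.4 CPM against 15.9 and 18.9 CPM. Most members nonetheless lacked a *Tcf7* UMI, since it was detected in 33 lean and 43 obese members. Without the members that carried *Lef1* and *Ccr7* UMIs together, the list median was 1.98 in the lean and 1.46 in the obese library, and within 5000 to 15000 UMIs it was 2.41 and 1.43.

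Most costimulatory receptor and chemokine genes showed the opposite order. Of 9 costimulatory genes, 5 were lower by that fold in lean members (median −0.59) and 6 in obese members (median −0.78), with 0 higher. *Tnfrsf9*, the gene of the costimulatory receptor 4-1BB that T cells express after antigen recognition, was at 21.4 and 23.5 CPM in members and 274 and 259 CPM in checkpoint cells. *Ccl3*, which encodes the inflammatory chemokine MIP-1α, was at 125 and 275 CPM in members against 1526 and 1068 CPM, and *Ccl4*, its MIP-1β relative, at 766 and 1298 CPM against 3394 and 2307 CPM. Of 6 chemokine genes that passed the filter of 8 listed, 4 were lower in each library. *Cxcl10*, an interferon-induced chemokine, was higher in members (94.0 and 187 CPM against 30.4 and 49.0 CPM) but was detected in only 17 and 27 of them. *Ccl5* was also higher, by 0.48 and 0.44 on the log2 scale, and was found in 96.6% and 98.1% of members. It stood higher still in cells with 1 checkpoint UMI (21297 CPM lean, 18540 CPM obese) than in members (14649 and 15453 CPM). Inhibitory receptors outside the rule were lower for 6 of 8 genes in the lean library and 6 of 7 in the obese library. *Ctla4*, the gene of a further checkpoint receptor, was nonetheless detected in 28 lean members (23.5%) and 60 obese members (38.7%), at 82.6 and 107 CPM. The rule thus sets the absence of checkpoint transcripts for its 3 genes and not for all such genes. *Tigit*, another checkpoint receptor gene outside the rule, was found at equal depth in 0 of 113 lean and 1 of 145 obese members.

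Glycolytic genes were lower in members for 16 of 17 genes in the lean library (median −1.20) and for 9 of 15 in the obese library (median −0.73). *Gapdh* stood at 839 and 951 CPM in members against 2281 and 1965 CPM in checkpoint cells, and *Tpi1*, the gene of triosephosphate isomerase, at 69.8 and 64.8 CPM against 320 and 223 CPM. Of the transcription factors of effector and exhausted cells, 10 of 18 were lower in lean members (median −0.57) and 6 of 18 in obese members (median −0.18), with 2 higher in each. *Tox*, a factor of the exhaustion program, was at 37.0 and 62.9 CPM in members against 139 and 184 CPM.

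**Figure D3:**
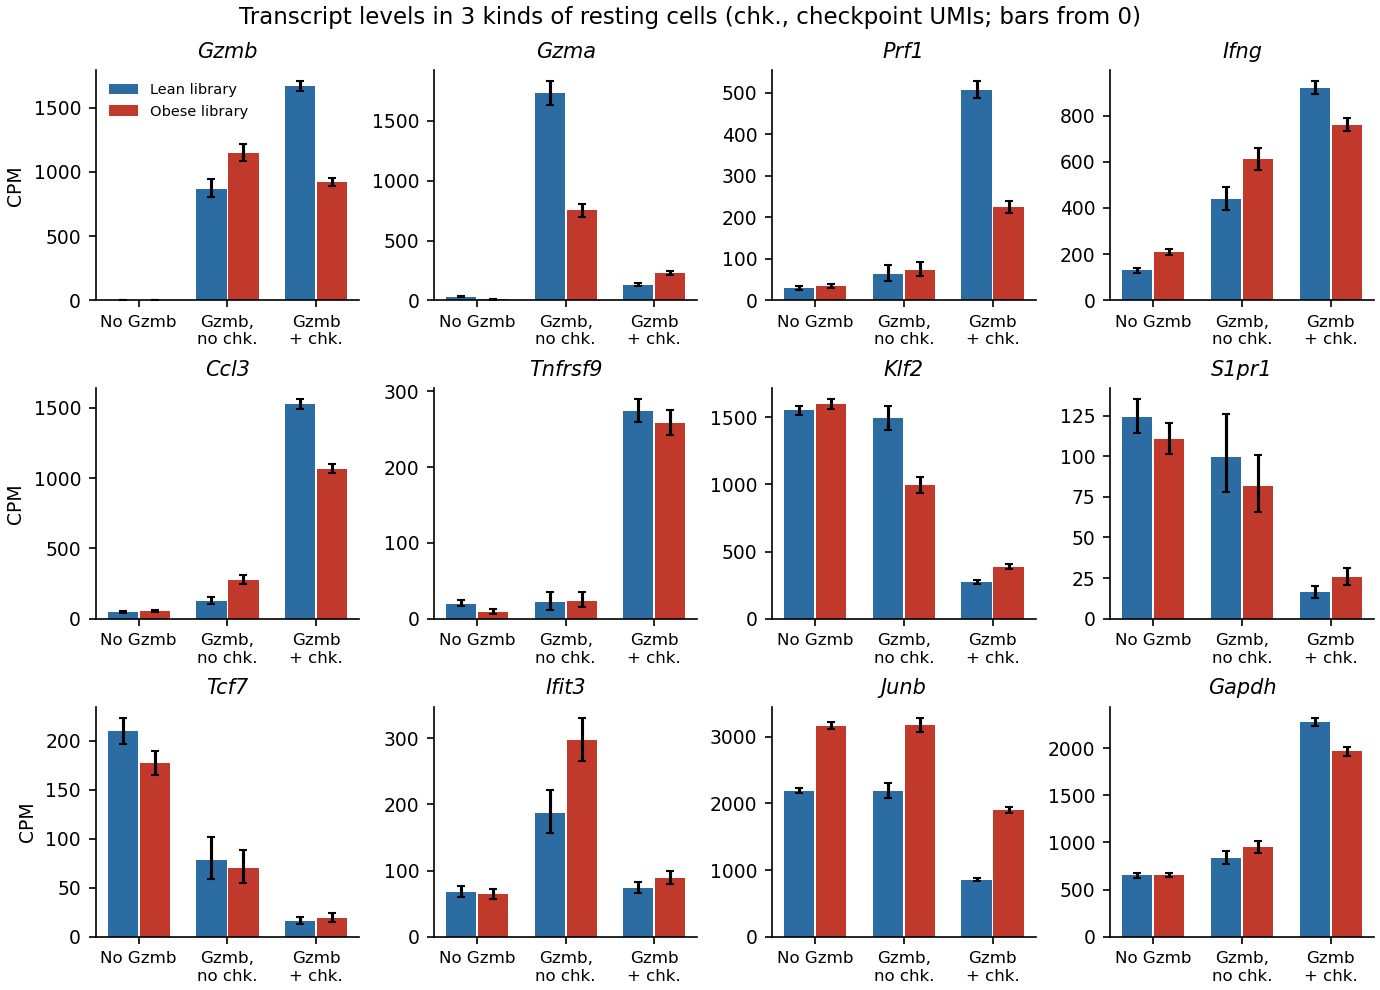
Levels of 12 genes (y axes, CPM, each from 0) in resting cells without *Gzmb* or checkpoint UMIs, in members, and in *Gzmb* cells with checkpoint UMIs, for the lean and obese libraries; error bars are 95% Poisson intervals. *Klf2*, *S1pr1* and *Tcf7* are higher in members than in checkpoint cells, *Prf1*, *Ccl3*, *Tnfrsf9* and *Gapdh* are lower, and *Gzma* is highest in members.

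Outside the lists, the genes with the widest ratios in both libraries were named by a fixed rule of size. Among the highest in members were *Rasgrp2*, a Rap1 activator of resting lymphocytes (log2 ratio 2.11 lean and 1.67 obese), *Socs3*, an inhibitor of cytokine signalling (1.95 and 1.63), and *Gpr183*, an oxysterol receptor that guides lymphocyte migration (1.22 and 1.16). Among the lowest were *Nrgn*, which encodes neurogranin (−4.86 and −5.24), *AA467197* (−2.89 and −2.97), *Rgs16*, a regulator of G-protein signalling (−3.35 and −2.57), and *Irf8*, an interferon regulatory factor (−2.38 and −2.56). A *Nrgn* UMI was found in 3 lean and 7 obese members, at 5.70 and 8.45 CPM against 165.3 and 318 CPM in checkpoint cells.

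The levels followed the number of checkpoint UMIs stepwise for some genes. From 0 to 1, 2 to 4 and at least 5 checkpoint UMIs, *Klf2* dropped in the lean library from 1494 to 658, 360 and 233 CPM, and in the obese library from 993 to 831, 462 and 231 CPM. *Tnfrsf9* increased from 21.4 to 55.8, 149 and 309 CPM in the lean library and from 23.5 to 26.2, 122 and 386 CPM in the obese library. *Gzma* behaved otherwise in the 2 libraries. In the lean library it was at 1731 CPM in members and 201 CPM in cells with 1 checkpoint UMI, whereas in the obese library these cells held 752 and 808 CPM. In the obese library, members and cells with 1 checkpoint UMI were also close for *Prf1* (74.1 and 71.7 CPM) and *Tnfrsf9*, and apart for *Gzmb* (1148 and 818 CPM), *Ifit3* (297 and 143 CPM) and *Tox* (62.9 and 159 CPM). In the lean library *Ifit3* had the opposite order, at 187 CPM in members (156 to 221) and 279 CPM in cells with 1 checkpoint UMI (219 to 350). Median depth moved with these steps, from 5264 and 4730 UMIs to 6703 and 10230 in the lean library and from 6065 and 6413.5 to 8496 and 13222.5 in the obese library, and its part in the trend was not tested.

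**Figure D4:**
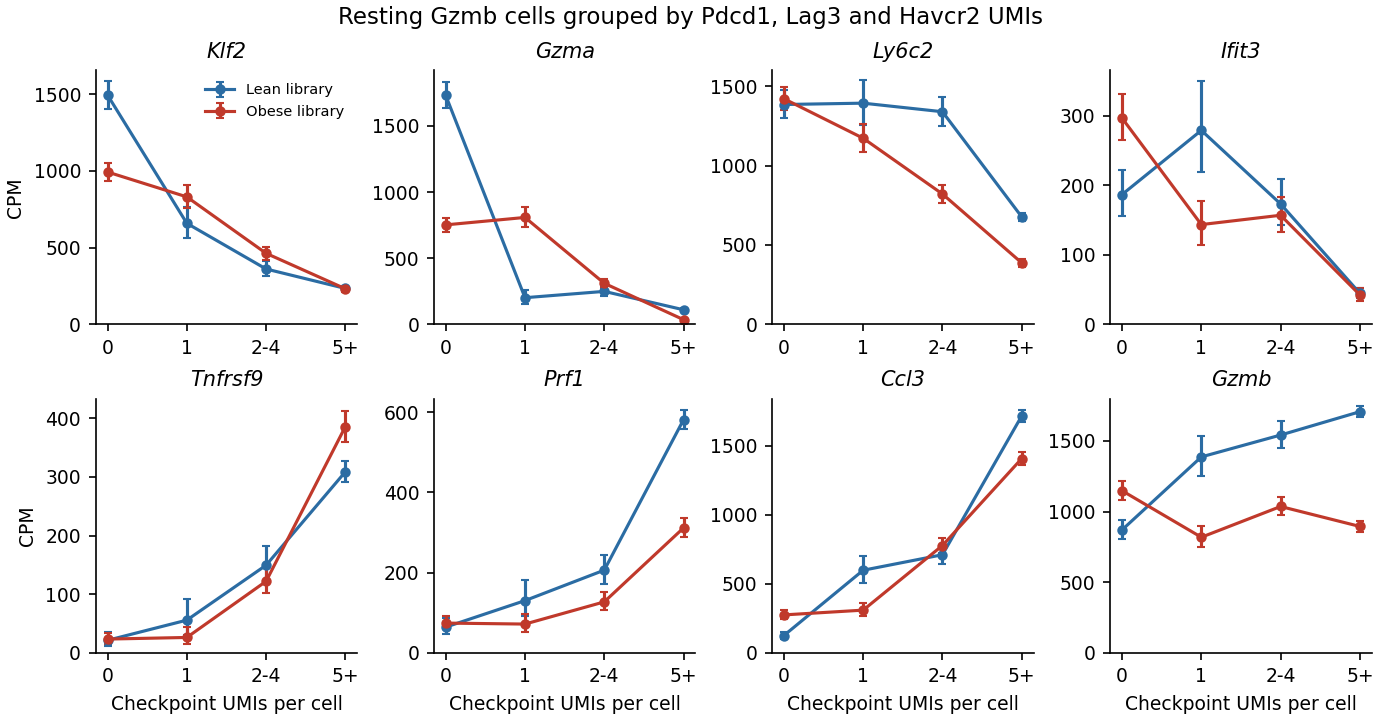
Levels of 8 genes (y axes, CPM) in resting *Gzmb* cells by their summed *Pdcd1*, *Lag3* and *Havcr2* UMIs (x axis: 0, which are the members, 1, 2 to 4, and 5 or more), for the lean and obese libraries; bars are 95% Poisson intervals. *Klf2* declines and *Tnfrsf9* and *Ccl3* increase along the steps, *Prf1* does so in the lean library and from 1 UMI on in the obese, and *Gzma* is high at 0 in the lean library and at both 0 and 1 in the obese library.

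Type I interferon-stimulated genes, the antiviral genes that cells switch on through the receptor for interferon α and β, were higher in the members than in both other groups by list median. In the lean library this did not hold against cells with 1 checkpoint UMI for *Isg15* (266 CPM in members and 286 CPM in those cells), *Ifit3* (187 and 279 CPM) or the interferon-induced chemokine gene *Cxcl10* (94.0 and 115 CPM). Of the 23 listed, 11 of the 20 that passed the filter were higher than in checkpoint cells in the lean library (median 0.65), with 1 lower, and 18 of 21 in the obese library (median 1.07), with 2 lower. Against resting cells without *Gzmb* or checkpoint UMIs, the list median was 1.17 and 1.37, beside 0.20 and 0.22 over all genes. To show the element through which these genes are switched on, promoter stretches of 3 list genes with matches are printed from RefSeq (GRCm38.p6), 5′ to 3′ on the strand of the gene, with capitals marking matches to the interferon-stimulated response element searched as GAAA, any 2 bases and GAAA on either strand.
*Ifit1*, chr19:34640779-34640838, plus strand: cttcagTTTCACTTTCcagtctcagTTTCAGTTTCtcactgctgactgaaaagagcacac
*Ifit3*, chr19:34583364-34583443, plus strand: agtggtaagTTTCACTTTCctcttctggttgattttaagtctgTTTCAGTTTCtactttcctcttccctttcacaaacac
*Isg15*, chr4:156200864-156200938, minus strand: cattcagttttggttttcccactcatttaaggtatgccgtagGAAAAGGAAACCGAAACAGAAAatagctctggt
The *Isg15* stretch holds 3 overlapping matches and the other two hold 2 each. In windows of 300 bases, from 250 before to 50 after the start, the letters occurred in 10 of the 17 list genes, of 23, that were matched to a window, against 3.44% of all 32851 windows. They were nearly as common in the interferon γ and antigen presentation list, at 9 of 17 genes, whose median over checkpoint cells was lower (0.10 lean, 0.36 obese), and occurred in 4 of 15 cytotoxic granule genes. A match is a description of the sequence and not of binding.

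*Ifit3*, which encodes an antiviral tetratricopeptide protein, stood at 187 CPM in lean and 297 CPM in obese members (log2 ratio 0.67, 0.37 to 0.97), against 74.0 and 88.9 CPM in checkpoint cells and 68.2 and 64.6 CPM in cells without *Gzmb*. *Isg15*, the gene of a ubiquitin-like modifier, stood at 266 and 315 CPM in members (log2 ratio 0.24, −0.02 to 0.51), against 160 and 133 CPM in checkpoint cells. *Rsad2*, which encodes viperin, was at 21.4 and 65.7 CPM, in 9 lean and 26 obese members. At equal depth, *Ifit3* was detected in 21.2% of lean and 33.1% of obese members, against 10.5% and 11.9% of checkpoint cells and 11.9% and 9.70% of cells without *Gzmb*. At this depth the share with *Ifit3* was thus higher in members than in both groups in each library. In the lean library the intervals of members (14.1 to 29.9) and of cells without *Gzmb* (9.45 to 14.6) overlapped. The difference between the libraries in this excess was not tested. Across members with 2 to 3, 4 to 9 and at least 10 *Gzmb* UMIs, groups formed on a gene of the rule, *Ifit3* was at 180, 261 and 501 CPM in the obese library and at 158, 203 and 236 CPM, with overlapping intervals, in the lean library. *Ifit1* was at 81.4, 106 and 267 CPM in obese and at 164.6, 88.4 and 124 CPM in lean members, so no such order was seen for it in the lean library.

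Immediate early genes, which T cells transcribe within minutes of a stimulus and also during tissue dissociation, were higher in members than in checkpoint cells for 11 of 17 genes in each library (median 0.79 lean, 0.60 obese, with 1 lower in the obese) and lay close to the cells without *Gzmb* (median 0.16 and 0.06). *Junb*, an AP-1 subunit gene, stood at 2190 and 3180 CPM in members, 857 and 1901 CPM in checkpoint cells, and 2193 and 3164 CPM in cells without *Gzmb*. *Fos*, its AP-1 partner, stood at 648 and 810 CPM in members. Naive and memory genes were lower in members than in cells without *Gzmb* (median −0.95 and −1.01), and chemokines were higher (median 1.49 and 1.84).

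Between the diets, 17.6% of 6577 genes with a mean of at least 10 CPM were higher in obese members by more than 0.5 on the log2 scale and 10% were lower, with a median of 0.09. With TMM scaling the split was 13.9% higher and 12.9% lower. Chemokines, effector transcription factors, immediate early genes and homing receptors were among the lists with more genes on the higher side. Of the chemokines, 3 of 5 were higher (median 0.76). *Ccl3* stood at 125 CPM in lean and 275 CPM in obese members (log2 ratio 1.13, 0.78 to 1.49) and *Ccl4* at 766 and 1298 CPM (0.76, 0.62 to 0.91). In checkpoint cells both were lower in the obese library, with log2 ratios of −0.51 and −0.56. The ratios moved with the processing, from 0.59 (mean over cells) to 3.17 (at least 10 *Gzmb* UMIs, where 13 lean members held 3 *Ccl3* UMIs) for *Ccl3* and from 0.44 to 1.71 under those settings for *Ccl4*. The difference between members and checkpoint cells in these genes was smaller in the obese library. *Ccl5*, the most abundant of them, differed little between the diets (0.08), but ranged from −0.31 to 0.43 under other settings.

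Of the effector and exhaustion transcription factors, 9 of 18 were higher in obese members and 1 was lower (median 0.53). *Nr4a2* and *Nr4a3*, orphan nuclear receptors induced by T cell receptor signalling, had log2 ratios of 1.12 (0.62 to 1.64) and 1.49 (0.66 to 2.41), with 136 and 60.1 CPM in obese members. *Bhlhe40*, a factor of cytokine production in activated T cells, stood at 238 and 398 CPM (0.74, 0.48 to 1.01), and *Eomes*, a factor of effector and memory cells, at 39.9 and 87.3 CPM (1.13, 0.51 to 1.79). *Tox* was at 37.0 and 62.9 CPM (0.76, 0.09 to 1.48). Among immediate early genes, 11 of 17 were higher and 1, *Atf3*, was lower (median 0.54). *Dusp1*, which encodes a phosphatase of MAP kinases, was at 248 and 473 CPM (0.93, 0.68 to 1.19). These factors were not confined to members, since checkpoint cells of the obese library also held more *Junb* (log2 ratio 1.15) and *Bhlhe40* (0.67). By list, 12 of 18 immediate early genes were higher in obese than in lean checkpoint cells and 0 lower (median 0.62). For the transcription factors, 7 of 18 were higher there and 0 lower (median 0.23). Over all genes in checkpoint cells, 517 of 6715 were higher in the obese library by that fold and 221 lower (median 0.04).

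Of the homing genes, 6 of 15 were higher in obese members and none was lower by that fold. *Cxcr6*, a chemokine receptor of tissue-resident and tumor T cells, stood at 150 and 293 CPM (log2 ratio 0.97, 0.65 to 1.30) and *Ccr2*, an inflammatory homing receptor, at 111 and 206 CPM (0.89, 0.51 to 1.29). *Cxcr3*, the receptor for *Cxcl10*, stood at 128 and 203 CPM (0.66, 0.30 to 1.03). *S100a4*, a calcium-binding protein gene of effector and memory cells, was at 886 and 1474 CPM (0.73, 0.60 to 0.87). Type I interferon genes were higher for 7 of 21 and lower for 1 (median 0.32), and heat shock genes higher for 4 of 11 (median 0.43). *Hspa1a* and *Hspa1b*, near-identical paralogs whose reads may be split between them, rested largely on a single obese cell that held 60.6% and 65.6% of their obese member UMIs.

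Naive and memory genes pointed the other way, with 5 of 16 lower and 1 higher in obese members (median −0.21). *Klf2* was at 1494 and 993 CPM (log2 ratio −0.59, −0.71 to −0.47) and *Ccr7*, the lymph node chemokine receptor gene, at 79.8 and 25.3 CPM (−1.65, −2.37 to −0.97). *Tcf7*, with 78.4 and 70.4 CPM (−0.15, −0.68 to 0.37), and *S1pr1* (−0.29, −0.76 to 0.19) did not differ beyond counting error. The difference therefore lay in a few genes of the list, and its median was 0.07 in members with at least 3 *Gzmb* UMIs and −0.01 after thinning. Granule genes had a median of 0.00, with 4 of 17 higher and 2 lower, and the CD8 T cell identity genes showed 0 of 15 past the fold in either direction.

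Other lists are given beside the same background. Cytokine receptor genes had 3 of 12 lower and 1 higher in obese members (median −0.21), survival and death genes 4 of 12 lower and 2 higher (0.09), and cholesterol genes 4 of 12 higher and 1 lower (0.13). Glycolytic genes were higher for 2 of 15 (0.13), cell cycle genes outside the rule for 3 of 15 (0.14), and interferon γ and antigen presentation genes for 0 of 20 (0.10), with none lower. Of 80 cytosolic ribosomal protein genes 2 were lower (−0.16), and of 40 nuclear respiratory chain genes none passed the fold in either direction (−0.05). Natural killer-type lectin receptors had 1 of 6 higher and 1 lower, the latter *Klre1*, at 61.3 and 19.7 CPM (log2 ratio −1.64, −2.46 to −0.85) in 24 lean and 11 obese members. Effector cytokine and death ligand genes were higher for 2 of 7 (0.28), costimulatory receptor genes for 2 of 9, with 1 lower (0.14), and Ly6, S100, galectin and annexin genes for 4 of 17 (0.25). Inhibitory receptor genes outside the rule had 1 of 6 lower (0.03), and genes of the mitochondrial genome 2 of 13 lower and 1 higher (−0.04).

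**Figure D5:**
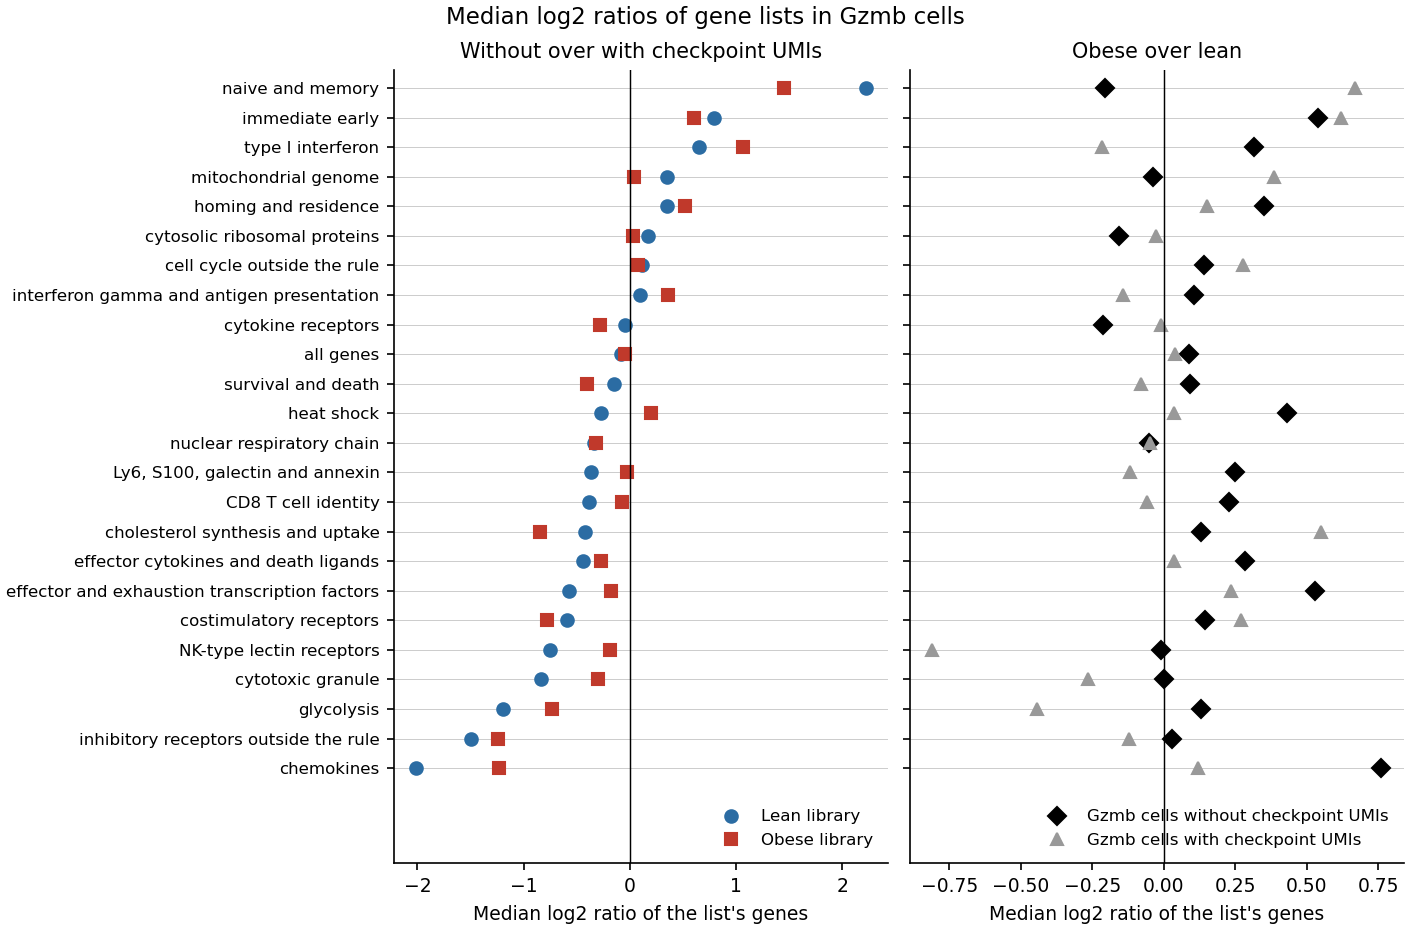
Median log2 ratio of each gene list (x axes) for members over checkpoint cells in the lean and obese libraries (left) and for obese over lean in members and in checkpoint cells (right). Naive and memory genes have the highest median on the left (2.22 lean, 1.45 obese), and on the right are below 0 in members (−0.21) and above 0 in checkpoint cells (0.67).

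Of the genes named by the size of the ratio, the highest in obese over lean members included *Bc1*, a brain cytoplasmic RNA gene (log2 ratio 1.75, 15 lean and 30 obese cells), *Atxn1* (1.24, 18 and 51 cells), *Gata3*, a T cell transcription factor (1.16, 18 and 47 cells), and *Cdk6*, a cell cycle kinase (1.08, 18 and 50 cells). Among the lowest were *Cct6a*, a chaperonin subunit gene, with 2027 and 595 CPM (−1.77), and *Rpl35*, a gene of the cytosolic ribosomal protein list (−1.10). *Rpl35* was lower in the obese library by a like amount in checkpoint cells (−0.93) and in cells without *Gzmb* (−0.96), so the difference was shared by all 3 groups. For *Cct6a* the ratio was −0.36 in both of those groups, and the 10 richest members held 60.4% of its lean and 60.6% of its obese UMIs. Among those named by the rule of size, single cells decided the ratios of *Mrpl9* (−1.12, and 0.61 without its richest cell) and *Sirt1* (−0.75 and 0.24).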

How the data were processed

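Per the submitters' processing notes, the libraries were processed with Cell Ranger 6.0.2 on mm10. The authors deposited filtered matrices of raw UMI counts per gene and cell, not normalized, with 2697 lean and 2623 obese cells, of which 2456 and 2289 were within the limits on UMIs and mitochondrial share. UMIs were summed over the cells of each group and library and scaled to counts per 1000000 UMIs (CPM). Ratios are log2, and a gene was tabulated with a mean of at least 10 CPM over the 2 sums compared. Shares at equal depth used cells thinned to 2000 UMIs. No doublet caller was run, cells were not clustered, and no test was made, because each diet had 1 library and the rule made the other contrasts. Only the interval step for ratios was tested on simulated data. These were independent Poisson counts, as the intervals assume, so UMIs clustered in single cells were not covered.

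Members and gene lists were chosen with earlier results of these data known. Named genes were those of the rule and lists, and others chosen by size. The latter were the 10 highest and 10 lowest ratios among genes with at least 50 CPM and 20 UMIs. They lay outside the lists, except for *Rpl35* of the cytosolic ribosomal protein list. Lists were summarised by counts past 0.5 and medians. Alternatives covered scaling (edgeR TMM), filters, depth, and the *Gzmb* and checkpoint limits. Those with a *Gzmb* minimum of 10, at least 2000 UMIs, no cells with *Lef1* and *Ccr7* UMIs, or no richest cell were chosen after seeing the data, as was the reference of cells with both genes. A few genes of the lists and of the named genes are not reported here. Positions came from GENCODE vM21 (GRCm38), which held 99.6% of 32285 gene identifiers, and promoter windows from RefSeq GRCm38.p6. Software was Python 3.11.15, numpy 2.4.6, scipy 1.17.1, pandas 2.3.3, matplotlib 3.10.9 and edgeR 4.0.16.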

Additional observations from a re-analysis of the deposited data

Results flagged for a closer look

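Differences that took opposite directions in members and in checkpoint cells, as log2 ratios of obese over lean, were found for 9 genes, each with both ratios over 0.5 in size and counting intervals clear of 0, and for 5 lists, each with both medians over 0.1 in size, and none of these differences between cell groups was tested. *Gzma* was at −1.20 in members and 0.79 in checkpoint cells. *Klf2* was at −0.59 and 0.50, *Ccr7* at −1.65 and 0.71, and *Dapl1*, a gene of naive-type T cells found in 9 lean and 6 obese members, at −1.69 and 1.52. *Ccl3* was at 1.13 and −0.51 and *Ccl4* at 0.76 and −0.56. In members, *Klf2* was under the limit of 0.5 between 5000 and 15000 UMIs (−0.46) and with at least 10 *Gzmb* UMIs (−0.22). *Ccl4* was under it as a mean over cells (0.44). *Atf3*, a stress-induced transcription factor gene, was at −1.14 and 0.84. Of the interferon-stimulated genes, *Isg20*, which encodes an exonuclease, was at 0.80 and −0.54 and *Rsad2* at 1.62 and −0.88.

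The list medians were −0.21 in members and 0.67 in checkpoint cells for naive and memory genes, 0.32 and −0.22 for type I interferon genes, 0.13 and −0.44 for glycolysis (0.0466 in members with TMM, 0.0597 without mitochondrial and ribosomal protein genes in the total, 0.0897 with a filter of 50 CPM, and −0.0382 with at least 10 *Gzmb* UMIs, all under the margin), 0.25 and −0.12 for Ly6, S100, galectin and annexin genes, and 0.10 and −0.14 for interferon γ and antigen presentation genes. The naive and memory median in members was also under the margin after thinning (−0.0082) and between 5000 and 15000 UMIs (−0.0754). It was under it as well with *Tigit* and *Ctla4* also at 0 (−0.0855) and without cells with *Lef1* and *Ccr7* UMIs (−0.0861). With a *Gzmb* minimum of 3 it turned to 0.073. Other lists also had medians of opposite sign, with at least 1 of the pair nearer 0, such as CD8 T cell identity genes (0.23 and −0.06). The median over all genes was 0.09 in members and 0.04 in checkpoint cells. Outside the limits on depth and mitochondrial share, 5 obese cells and 1 lean cell met all the gene limits of the rule and entered no comparison.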

How the results depend on the processing

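Of 309 alternative values of 27 results, 249 moved by less than counting error or the set margin, 53 moved by more and 7 turned in direction. *Prf1* (0.21), whose interval included 0, is counted among the 249 although it was at −0.30 after thinning. Members were 4.85% of lean cells, but 7.51% when cells were thinned before the rule, 9.57% with 1 *Gzmb* UMI as the minimum, 3.5% with 3, and 3.62% with *Tigit* and *Ctla4* also at 0. The obese share of 6.77% became 9.10%, 12.1%, 4.94% and 4.06% under the same settings and 8.08% in cells of 5000 to 15000 UMIs. The obese share was above the lean share under all 8 settings tried. *Ccl5* (0.08) was at −0.0076 with TMM, −0.070 as a mean over cells, −0.0507 thinned, −0.17 with a *Gzmb* minimum of 3 and −0.31 with 10. It moved the other way to 0.43 between 5000 and 15000 UMIs and to 0.22 with a *Gzmb* minimum of 1. The naive and memory median in members (−0.21) was 0.073 with a *Gzmb* minimum of 3, and the glycolysis median (0.13) −0.0382 with a minimum of 10. *Gzma* ranged from −0.99 to −1.43 and *Klf2* from −0.22 to −0.77, while *Ccl3* ranged from 0.59 to 3.17, the upper value on 3 lean UMIs, *Ccl4* from 0.44 to 1.71 and *Ifng* from 0.14 to 1.03. The type I interferon median in members (0.32) was 0.91 with a *Gzmb* minimum of 10. Over checkpoint cells that list was at 0.67 between 5000 and 15000 UMIs in the obese library (1.07), and immediate early genes at 0.47 in the lean (0.79) and 0.44 in the obese library (0.60) after thinning.

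Genes higher in obese members (1157) numbered 220 with a filter of 50 CPM and 2240 with none. Genes lower (659) numbered 63 and 2051 with those filters, 1078 without mitochondrial and ribosomal protein genes in the total, 1029 as a mean over cells, 1425 thinned, 321 with a *Gzmb* minimum of 1 and 1972 with 10. With TMM, 917 were higher and 852 lower. With the *Gzmb* minimum of 10, 1390 were higher against the 1972 lower, so the balance between the directions turned. The filter of 50 CPM admitted 2320 genes and the setting with none 10289, against 6577 in the main setting. Causes of these shifts were not tested. No paired analysis was possible because each diet had 1 library, and for the same reason no library could be left out. Ratios resting on few UMIs are limited by depth.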

Other observations

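T cell receptor β variable genes were detected in 38 lean and 36 obese members, over 14 and 17 genes. *Trbv2* was found in 8 of the lean (21.1%) and 6 of the obese members with such a gene (16.7%), beside 86 of 241 (35.7%) and 24 of 129 (18.6%) checkpoint cells. No single variable gene was found in over 21.1% of the members with one.

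Cells with 1 *Gzmb* UMI, just outside the rule, stood near members with 2 for *Klf2* in the lean library (1653 and 1559 CPM), and apart from them for *Gzma* (140 and 387 CPM).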
